A study of Rattus norvegicus with 59 samples.

Results

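The stress axis genes described here encode corticotropin-releasing hormone (Crh), its binding protein (Crhbp), its type 1 receptor (Crhr1), the glucocorticoid receptor (Nr3c1) and the mineralocorticoid receptor (Nr3c2). Their members are all probe sets whose only gene symbol in the array annotation is one of these 5 symbols, which gave 8 of the 8799 probe sets on the array and 4 of the 4736 genes it names. Crh had 1 probe set, Crhbp 2, Nr3c1 3 and Nr3c2 2. No probe set carried the symbol Crhr1, so the receptor was not analysed here. Of the 8 probe sets, 5 passed the filter that left out the dimmest 40% of probe sets by mean signal: the Crh probe set, 2 of Nr3c1 and both of Nr3c2. The second Nr3c2 probe set lay at percentile 40.2 of mean signal and passed only through its high hippocampal signal. It is therefore left out of the counts of members called between regions, except in the counts by setting at the end. Both Crhbp probe sets (percentiles 37.7 and 35.7) and the third Nr3c1 probe set (percentile 11.3) were below the filter, and their tests come from a fit of all 8740 probe sets that are not controls.

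Crh is a peptide that starts the hormonal stress response when it is released from the hypothalamus, and it also acts as a transmitter in cortex and limbic forebrain. The binding protein holds the peptide in the extracellular space and limits its access to the receptors. Adrenal corticosteroids feed back on the brain through the products of Nr3c2, the receptor of high affinity that is known for its abundance in hippocampus, and of Nr3c1, the receptor of lower affinity that is found in most brain cells.

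The arrays measured total RNA of 5 brain regions from adult male rats of the selected inbred lines iP5C (alcohol preferring, iP) and iNP1 (alcohol non-preferring, iNP), with no drug or alcohol treatment named in the labels. Both lines had been housed in pairs and habituated daily to handling and to the guillotine before the brains were taken. The regions were nucleus accumbens, amygdala, hippocampus, striatum and frontal cortex, with 6 rats of each line in each region and 5 iP rats in cortex, 59 arrays in all. Each line is 1 inbred strain, so a line difference is a difference between 2 strains, and the ages within adulthood are not given in the sources used here. Line and region were read from the titles and genotype, since the source name gives iNP for every array.

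The median of an array's signals lay between 251 and 391. Of 8 tested genes of striatal projection neurons, 7 were higher in striatum and 8 in accumbens than in the other regions, and of 4 hippocampal marker genes 3 were higher in hippocampus. Of all tested probe sets 6.27% were called higher in striatum, 12.3% in accumbens and 10.8% in hippocampus. These markers were chosen after their values were seen, so their counts are a description and no check of the labels. A pair of arrays went against their labels or stood apart. The array labelled cortex of iP animal 5 correlated with the mean amygdala profile at r 0.30 and with the cortex profile at r -0.201 across probe sets, and its Gapdh 3′ to 5′ signal ratio was 70.6, against at most 1.36 on the other 58 arrays. The array labelled amygdala of iP animal 1 correlated with the cortex profile at r 0.352 and with the amygdala profile at r -0.213. Both were kept, and the values of cortex and amygdala that they touch are also given without them where these are described in detail.

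Crh signal was highest in accumbens and cortex and lowest in hippocampus. Probe set M54987_at (gene ID 81648) gave 221 to 449 in accumbens, with a median of 336, and 212 to 391 in cortex, with a median of 285. Striatum (147 to 342, median 203) and amygdala (150 to 276, median 201) lay between. In hippocampus 11 arrays lay between 120 and 221, and the array of iNP animal 9 read 10.7 and was set to the floor of 16 used for all lower signals. Every region overlapped with others.

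**Figure D1:**
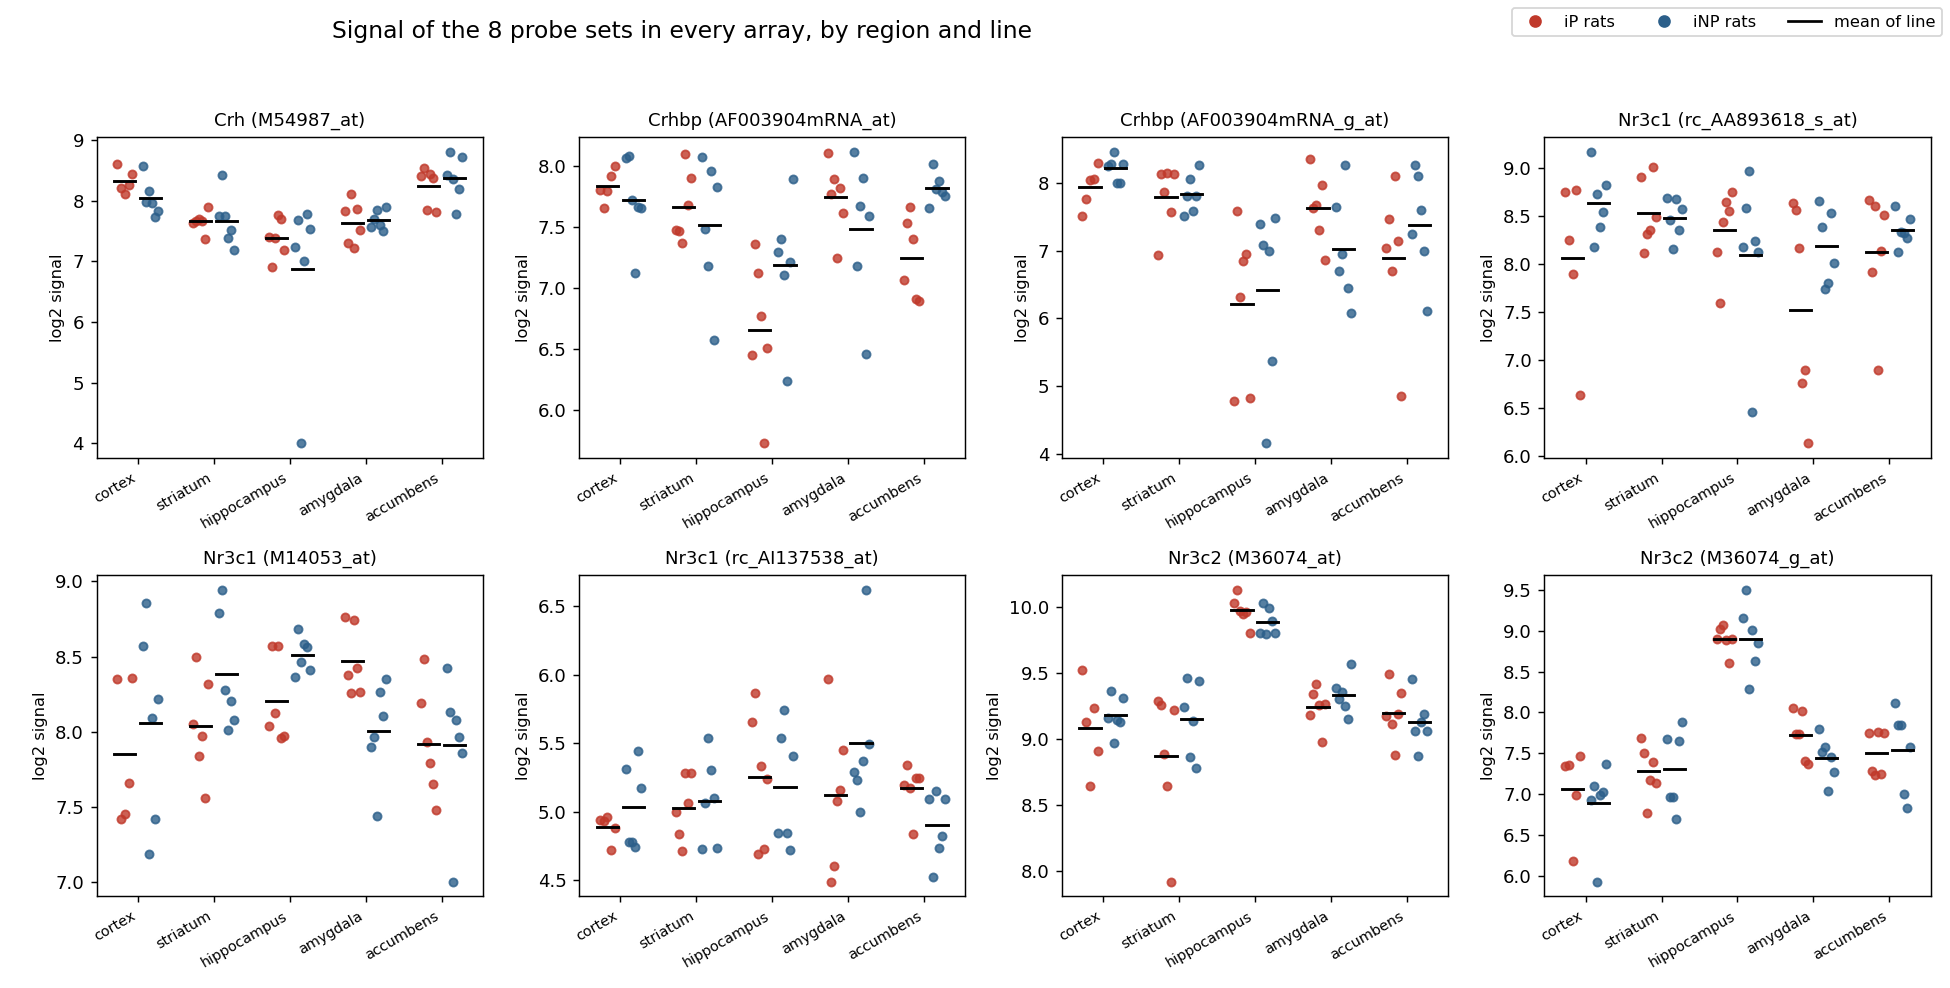
Signal (log2, vertical axis) of the 8 probe sets in each region; every point is the array of 1 rat, red for iP and blue for iNP, and the black bar is the mean of a line. Nr3c2 in hippocampus lies above every other array on both of its probe sets, while the points of the lines overlap in every region on all 8 probe sets.

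The log2 signal of a region was compared with the average of its 4 counterparts, blocking on the rat, and a difference is called where its Benjamini-Hochberg adjusted p over all probe sets tested is under 0.05. Crh in accumbens exceeded the other regions by 0.65 ± 0.17 (log2, SE; 1.57-fold; limma adjusted p = 0.00354), in 12 of 12 rats. Crh was the 1 of 4 members counted that was called higher there, against 12.3% of all tested probe sets. Its probe set lay at percentile 41.8 of mean signal, near the filter. Whether it would pass without its accumbens arrays was not checked, so that count of members is a description only. Under the other settings that tested this probe set, no filter among them, the accumbens difference ran from 0.56 to 0.67 (limma adjusted p at most 0.0167). Hippocampus was lower by -0.82 ± 0.17 (0.568-fold; limma adjusted p = 0.000218), in 11 of 12 rats, and Crh was the 1 of 4 members called lower there, against 12.5% of tested probe sets. Without iNP animal 9 the hippocampal difference was -0.52 (limma adjusted p = 0.000178).

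Cortex lay above the other regions by 0.47 ± 0.18 and was not called (limma adjusted p = 0.0643), whereas without iNP animal 9 it was called at 0.40 (limma adjusted p = 0.00886). Without the pair of arrays that stood apart it was 0.45 (limma adjusted p = 0.0862). Amygdala, a site where Crh neurons are well known, differed by -0.16 ± 0.17 (95% interval -0.50 to 0.19; limma adjusted p = 0.558). None of the members tested was called in amygdala, where 26.1% of all tested probe sets were called in either direction; at an unadjusted p under 0.05 in limma there was 1, a probe set of Nr3c1.

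In the order accumbens, cortex, striatum, amygdala and hippocampus, no neighbours were called. Crh in accumbens was higher than in striatum by 0.65 ± 0.22 (limma adjusted p = 0.0361), than in amygdala by 0.65 ± 0.22 (limma adjusted p = 0.0269) and than in hippocampus by 1.18 ± 0.22 (limma adjusted p = 2.83e-05). Of tested probe sets 14.1%, 20.5% and 23.6% were called in these pairs. Cortex exceeded hippocampus by 1.03 ± 0.22 (limma adjusted p = 0.000429; 21.5% called).

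The binding protein shared the low hippocampal signal. AF003904mRNA_at (gene ID 29625) gave 53.0 to 238 in hippocampus, with a median of 139. Medians elsewhere were 221 in cortex, 211 in amygdala, 202 in accumbens and 192 in striatum, and the regions overlapped. AF003904mRNA_g_at, from the same sequence record, gave 17.8 to 193 in hippocampus (median 120) and 184 to 355 in cortex (median 266), with medians of 229 in striatum, 179 in amygdala and 147 in accumbens.

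In the fit of all probe sets, hippocampal Crhbp was lower by -0.70 ± 0.14 (0.617-fold; limma adjusted p = 0.00027) and by -1.26 ± 0.24 (0.419-fold; limma adjusted p = 9.76e-05), in 10 and 11 of 12 rats. These were 2 of the 3 dim members, against 8.48% of all 8740 probe sets called lower in hippocampus. Both lie on the same sequence record of 1 gene, so the second is not a separate check. Cortex was higher by 0.85 ± 0.25 on AF003904mRNA_g_at, in 11 of 11 rats (limma adjusted p = 0.0197), the 1 of 3 dim members called higher there, against 4.73% of probe sets. That call was lost without iNP animal 11 (0.80; limma adjusted p = 0.054). On AF003904mRNA_at the cortical difference was 0.34 ± 0.15 and was not called (limma adjusted p = 0.168). Without the pair of arrays that stood apart the cortical differences were 0.90 and 0.30. The averages set against cortex hold the low hippocampal arrays.

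Among pairs of regions, Crhbp was lower in hippocampus than in cortex, striatum and amygdala on both probe sets, by 0.67 to 0.83 on AF003904mRNA_at and by 1.01 to 1.69 on AF003904mRNA_g_at (limma adjusted p between 7.81e-05 and 0.0172). In these pairs 13.8%, 12.1% and 15.1% of all 8740 probe sets were called. The step from hippocampus to accumbens, its neighbour in both orders, was called at 0.61 on AF003904mRNA_at (limma adjusted p = 0.0147; 16.1% called). It was lost there without iNP animal 10 (limma adjusted p = 0.0539) and with quantile normalization (limma adjusted p = 0.0775), and on AF003904mRNA_g_at it was not called (limma adjusted p = 0.0597). No other neighbours were called.

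Crh and Crhbp are made by inhibitory interneurons among other cells of the forebrain, and interneuron markers were low in hippocampus too. Of 13 tested interneuron markers 8 were lower there and 0 higher, with a median difference of -0.42 (0.01 over all tested probe sets). Npy, which encodes neuropeptide Y, was lower by -0.61, Calb1, which encodes calbindin, by -0.60, and the somatostatin gene Sst by -0.43. The summed signal of the 13 genes ran from 30290 to 38620 over the hippocampal arrays and from 36800 to 62890 over the others. All 3 blood markers tested (Hbb, Hbb-b1 and Alas2) were lower in hippocampus, by -0.36 to -0.41, and higher in accumbens, by 0.60 to 0.65. Of all tested probe sets 12.5% were called lower in hippocampus and 12.3% higher in accumbens. The part of interneurons or of blood in the Crh and Crhbp differences was not tested. In dissected tissue, fewer cells of a type and less RNA per cell cannot be told apart.

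The gene most similar to Crh over the 59 arrays was Tspo, which encodes a mitochondrial outer membrane protein, at r 0.688, followed by Nol3 at 0.626 and the immunoglobulin gene Ighvl1 at 0.618; the median over the 3173 genes compared was 0.018. In hippocampus Nol3, an inhibitor of apoptosis, differed by -0.36 and Tspo by -0.32, a direction that the choice by likeness favours. Crhbp was below the filter and was not compared in this way.

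Both Nr3c2 probe sets were brighter in hippocampus than on every array of the other regions. Probe set M36074_at (gene ID 25672) gave hippocampal signals from 888 to 1121, with a median of 991, on 12 arrays. The medians of the other regions were 622 in amygdala, 568 in accumbens, 565 in cortex and 579 in striatum, and the brightest of those 47 arrays reached 760. No hippocampal array overlapped any other, and hippocampus was the brightest region in 12 of 12 rats. Of the 5244 probe sets tested, 0.286% had hippocampal arrays that were all above those of the other regions.

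The second Nr3c2 probe set, M36074_g_at, lies on the same sequence record and is not a separate check. It gave 312 to 727 in hippocampus, with a median of 478. Elsewhere its medians were 187 in amygdala, 203 in accumbens, 156 in striatum and 130 in cortex, with a highest value of 276. Hippocampal arrays again lay above all others in both lines, which is a description only, since the probe set was tested because of them.

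Against the other regions, hippocampal Nr3c2 signal was higher by 0.78 ± 0.07 (1.72-fold; limma adjusted p = 5.28e-12) on M36074_at. It was the 1 of 4 members called higher in hippocampus, and 10.8% of all tested probe sets were called in that direction. On M36074_g_at the difference was 1.56 ± 0.12 (2.95-fold), given with no test. Striatum was lower on M36074_at by -0.37 ± 0.07 (limma adjusted p = 0.000242), the 1 of 4 members called lower there, against 7.65% of tested probe sets. M36074_g_at differed in striatum by -0.45 ± 0.12. On both probe sets the average holds the high hippocampal arrays. In single pairs on M36074_at, amygdala exceeded striatum by 0.28. Accumbens (0.15, limma adjusted p = 0.342) and cortex (0.13, limma adjusted p = 0.509) were not called against striatum.

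In cortex M36074_at differed by -0.21 ± 0.08 and was not called (limma adjusted p = 0.0598). Without the pair of arrays that stood apart its value was -0.22 (limma adjusted p = 0.0409). M36074_g_at differed in cortex by -0.86 ± 0.12, in the same direction in 11 of 11 rats, and by -0.92 without that pair of arrays. The averages set against cortex hold the high hippocampal arrays too.

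The regional order of Nr3c2 was hippocampus, amygdala, accumbens, cortex and striatum on M36074_at, with cortex and striatum exchanged on M36074_g_at. Hippocampus exceeded amygdala, its neighbour in the order, by 0.64 on M36074_at (limma adjusted p = 3.39e-07) and by 1.32 on M36074_g_at. Of all tested probe sets 10.5% were called in that direction in the same pair. No other neighbours in either order were called. Further apart in the order, amygdala exceeded striatum by 0.28 ± 0.09 on M36074_at (limma adjusted p = 0.0253), a pair in which 24.3% of tested probe sets were called. On M36074_g_at amygdala exceeded cortex by 0.62 ± 0.15 and accumbens exceeded cortex by 0.55 ± 0.15, both given with no test.

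Other genes and cell markers moved with Nr3c2 in hippocampus. Htr5b, a serotonin receptor gene, was higher there by 2.18, Epha7, an ephrin receptor gene, by 1.42 and Neurod1, a transcription factor of granule neurons, by 1.09, while Lct, the remaining tested hippocampal marker, differed by 0.09 and was not called. All 6 tested oligodendrocyte markers were higher in hippocampus as well (median difference 0.52, against 0.01 over all tested probe sets, of which 10.8% were called higher). The choroid plexus marker Ttr was higher there by 4.40 and Enpp2 by 1.09, whereas Igf2 and Igfbp2 were lower. The part of these cells in the Nr3c2 difference was not tested.

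The genes whose signal followed M36074_at most closely over the 59 arrays were Kit, a receptor tyrosine kinase gene, at r 0.79, Ntf3, which encodes neurotrophin 3, at r 0.752, and Cebpb, a transcription factor gene, at r 0.745. The median r over the 3173 genes compared was 0.017, and the arrays share regions, rats and dissections. Hippocampus exceeded the other regions by 1.15 for Kit, by 0.96 for Ntf3 and by 1.48 for Cebpb, as the choice of genes by their likeness to M36074_at sets beforehand.

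Nr3c1 had no called difference of a region from the other 4 on any of its 3 probe sets, and the probe sets disagreed in direction. The brightest, rc_AA893618_s_at (gene ID 24413), had medians of 374 in cortex, 355 in striatum, 325 in hippocampus, 321 in accumbens and 273 in amygdala. Its arrays ranged from 70.1 to 404 in amygdala and from 99.5 to 577 in cortex, so that all regions overlapped. Amygdala differed by -0.47 ± 0.19 (limma adjusted p = 0.0638), which was called without the pair of arrays that stood apart (-0.56; limma adjusted p = 0.0171).

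Probe set M14053_at, on another sequence record of Nr3c1, placed amygdala on the other side, at 0.13 ± 0.12 (limma adjusted p = 0.478). Its medians were 347 in hippocampus, 308 in amygdala, 283 in striatum, 273 in cortex and 247 in accumbens. Hippocampus differed from the other regions by 0.28 ± 0.12 (limma adjusted p = 0.0881), and by 0.31 without the pair of arrays that stood apart (limma adjusted p = 0.0473). The third probe set, rc_AI137538_at, was dim, between 22.5 and 98.4 on all arrays, and none of its regional differences was called.

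Between pairs of regions, M14053_at was higher in hippocampus than in accumbens by 0.44 ± 0.15 (limma adjusted p = 0.027), a pair in which 23.6% of tested probe sets were called. The brightest probe set was higher in striatum than in amygdala by 0.65 ± 0.24 (limma adjusted p = 0.0445), where 24.3% were called. No other pair was called on the Nr3c1 probe sets, neighbours in their orders of regions included.

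The hexokinase ratio, 1 of 3 RNA quality ratios on the array, moved with the brightest Nr3c1 probe set. The log2 ratio of 3′ to 5′ hexokinase control signal, which is higher on arrays whose RNA is shorter or less completely copied, correlated with rc_AA893618_s_at at r -0.72 over 59 arrays and at r -0.67 over 58 without cortex of iP animal 5. The same correlation was -0.01 for M14053_at and -0.11 for Nr3c2 M36074_at. The Gapdh ratio gave r -0.41 and -0.55 for rc_AA893618_s_at, with and without that array, and the beta-actin ratio -0.30 and 0.01. For M14053_at the Gapdh ratio gave 0.07 and -0.01 and the beta-actin ratio 0.29 and 0.51, so the ratios differed in which probe set they followed. In amygdala, iP animals 4, 5 and 6 had the lowest Nr3c1 signals, at 109, 119 and 70.1, while the other 9 amygdala arrays lay between 213 and 404. Those 3 arrays also had hexokinase ratios of 1.47 to 1.90, above the 0.50 to 1.32 of the other 9. The highest hexokinase ratio of the 59 arrays was 3.91, in accumbens of iP animal 4. There the brightest Nr3c1 probe set read 119, against 241 to 407 in the other iP rats, and both hexokinase correlations hold that array. The part of RNA quality in the Nr3c1 values was not tested.

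**Figure D2:**
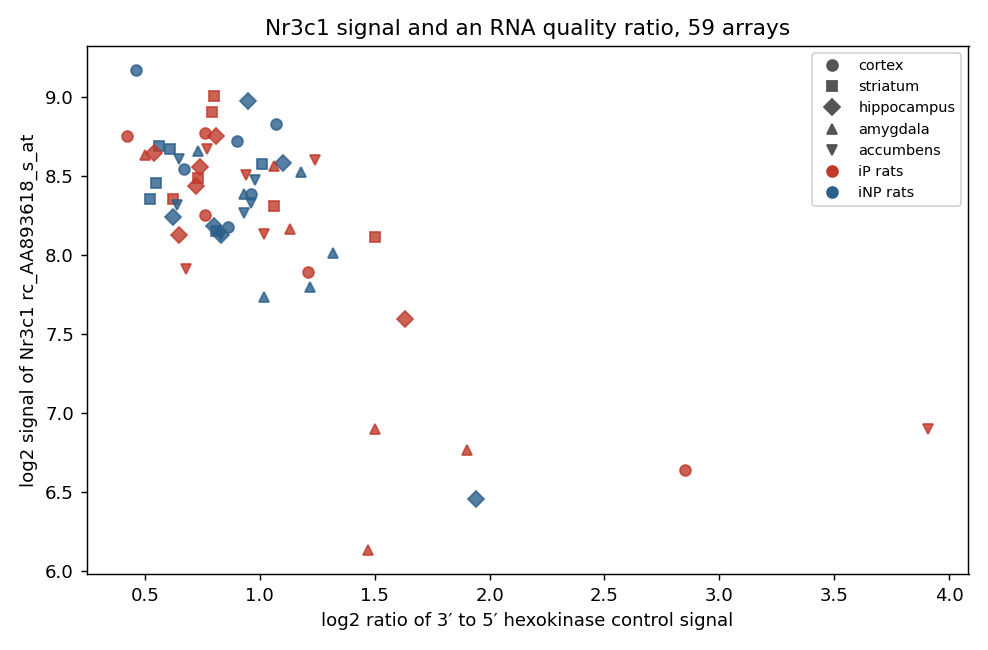
Log2 signal of the brightest Nr3c1 probe set against the log2 ratio of 3′ to 5′ hexokinase control signal on 59 arrays; shapes mark regions and colours mark lines. Arrays of low Nr3c1 signal have high ratios (r -0.72), among them amygdala of iP animals 4, 5 and 6 with ratios of 1.47 to 1.90. The highest ratio, 3.91, is that of accumbens of iP animal 4.

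The genes most similar to the brightest Nr3c1 probe set were Ptprd, a receptor tyrosine phosphatase gene (r 0.828), Arnt2, a partner of bHLH-PAS transcription factors (r 0.767), and Map1b, a microtubule-associated protein gene (r 0.766). In amygdala Ptprd differed by -0.60, Map1b by -1.33 and Arnt2 by -0.16, a direction that the choice by likeness favours.

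Because both receptors are read on the same array, their log2 difference was followed from region to region. M36074_at minus the brightest Nr3c1 probe set averaged 1.71 ± 0.72 in hippocampus (SD, n = 12) and 1.43 ± 0.81 in amygdala. It averaged 0.92 ± 0.44 in accumbens, 0.76 ± 0.60 in cortex (n = 11) and 0.50 ± 0.56 in striatum. In hippocampus 11 of 12 rats lay above the mean of their own other regions, and in striatum 0 of 12 did. With M14053_at in place of the brightest probe set, the hippocampal mean was 1.57 ± 0.27 and 11 of 12 rats were above their other regions. The striatal mean was then 0.80 ± 0.33, with 3 of 12 rats above their other regions. Both differences share M36074_at, itself higher in hippocampus in 12 of 12 rats, so the second is not a separate check. The amygdala mean with M14053_at, 1.05 ± 0.43, lay below those of accumbens (1.24 ± 0.33) and cortex (1.17 ± 0.48). Without the pair of arrays that stood apart, the means with the brightest probe set were 1.51 ± 0.79 in amygdala (n = 11) and 0.61 ± 0.34 in cortex (n = 10), and those with M14053_at were 1.11 ± 0.39 and 1.23 ± 0.45. The amygdala part of this difference therefore depends on the Nr3c1 probe set, and the level of 1 probe set cannot be set against that of another.

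**Figure D3:**
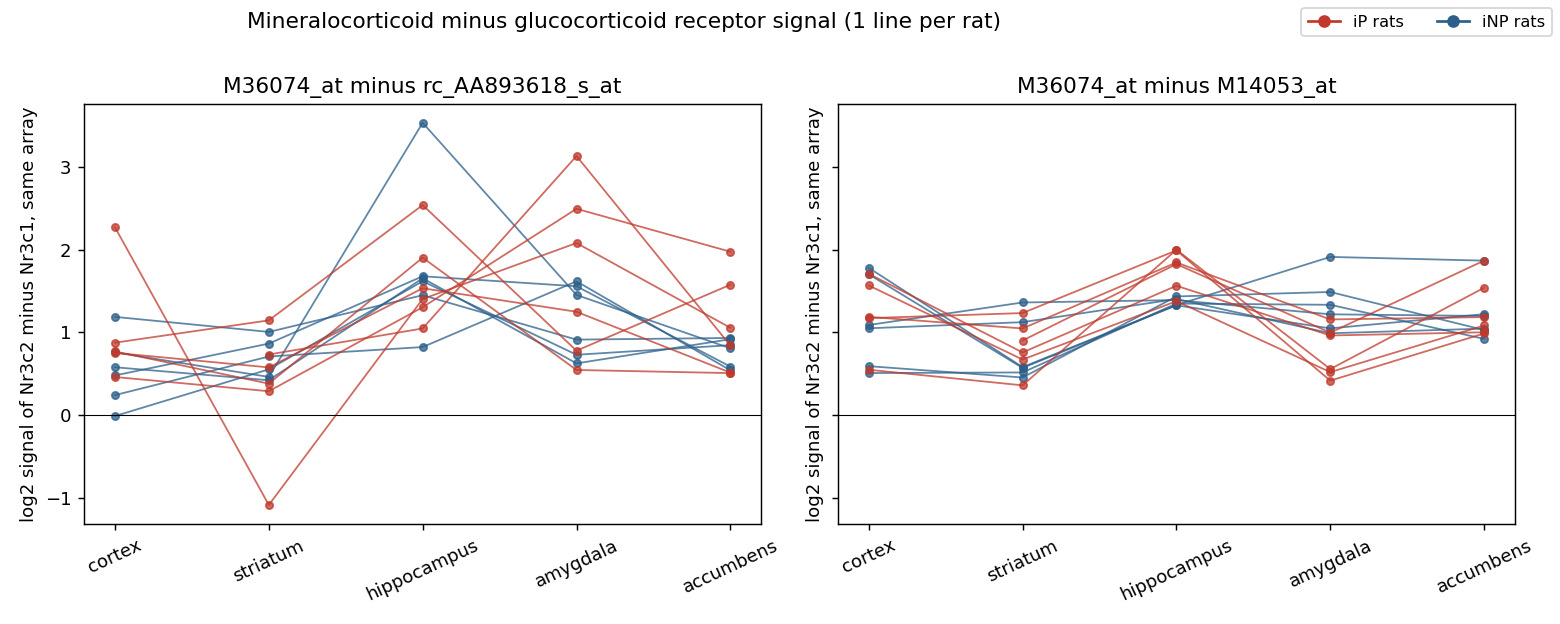
Log2 signal of Nr3c2 (M36074_at) minus Nr3c1 on the same array, by region, with the brightest Nr3c1 probe set on the left and M14053_at on the right; each line joins the arrays of 1 rat. Hippocampal means were 1.71 and 1.57, and amygdala means were 1.43 and 1.05.

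**Figure D4:**
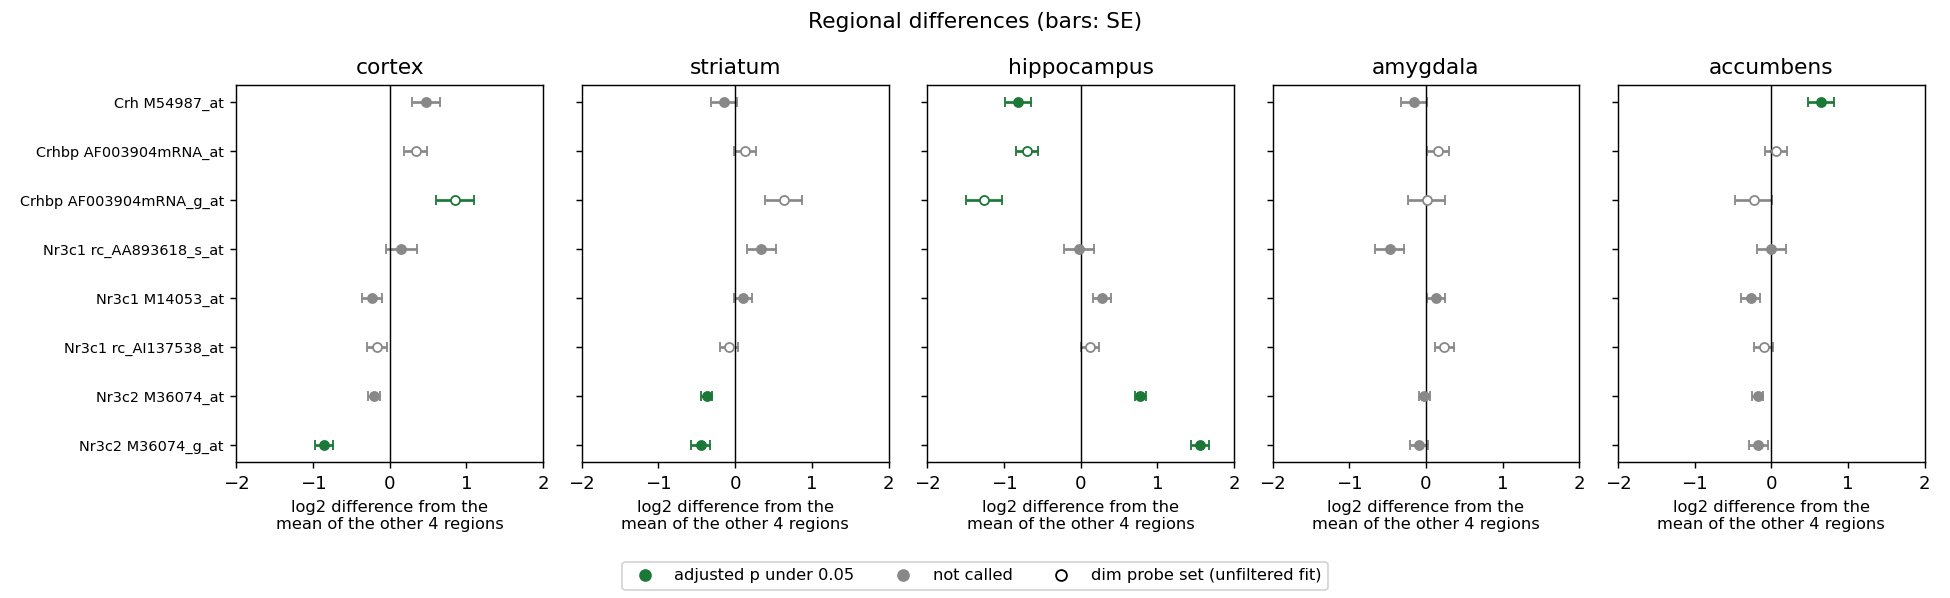
Log2 difference of each region from the mean of the other 4 (horizontal axis) for the 8 probe sets, with SE as bars; green marks an adjusted p under 0.05 and open symbols are dim probe sets from the fit of all probe sets. Hippocampus is lower for Crh and both Crhbp probe sets (-0.82, -0.70 and -1.26) and higher for both Nr3c2 probe sets (0.78 and 1.56). M36074_g_at, green in hippocampus, cortex and striatum, passed the filter only through its hippocampal arrays, so its colour is a description only.

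No member was called between the lines. Over all regions of each rat, iP minus iNP was 0.11 ± 0.13 for Crh and -0.13 ± 0.12 and -0.11 ± 0.23 for Crhbp. It was -0.23 ± 0.14, -0.08 ± 0.13 and -0.04 ± 0.10 for the 3 Nr3c1 probe sets and -0.06 ± 0.08 and 0.07 ± 0.13 for Nr3c2 (log2, SE; n = 6 and 6 rats). The lowest limma adjusted p was 0.556, and 2.65% of tested probe sets were called (1.84% in the fit of all 8740, used for the dim members). The 95% intervals reached from -0.62 to 0.40, and the missed threshold does not show that the lines are alike. For M36074_at, the most precise of the Nr3c2 values, the interval was -0.24 to 0.12.

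Within single regions, 0 of 40 comparisons of lines (8 probe sets in 5 regions) were called by limma, and 2 had an unadjusted p under 0.05. Of the 5244 tested probe sets 0.839% were called in striatum, 0.725% in amygdala, 0.667% in hippocampus, 0.572% in accumbens and 0.229% in cortex. In the fit of all 8740, which holds the 3 dim members, the shares were 0.538%, 0.458%, 0.423%, 0.378% and 0.137%. The lines overlapped in all 40, where 1.43%, 1.14%, 1.28%, 1.07% and 1.22% of tested probe sets, in the same order of regions, had lines that did not. Of all 8740 these shares were 1.06%, 0.824%, 0.95%, 0.847% and 0.938%. The iP mean was higher in 16 comparisons and lower in 24.

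Crhbp in accumbens gave the smallest p. AF003904mRNA_at read 119 to 202 in iP rats, with a median of 152, and 201 to 258 in iNP rats, with a median of 222, so that the ranges met only at their ends. The difference was -0.57 ± 0.17 (limma unadjusted p = 0.00639, adjusted p = 0.383). The other Crhbp probe set differed by -0.50 ± 0.52 there (limma adjusted p = 0.877). In hippocampus the iP medians were 100 and 97.8 on the 2 Crhbp probe sets and the iNP medians 153 and 132, with differences of -0.53 ± 0.32 and -0.20 ± 0.68, not called. With 1 rat left out they ran from -0.73 to -0.35 and from -0.65 to 0.09.

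Nr3c1 M14053_at in amygdala was the other comparison with an unadjusted p under 0.05. It read 307 to 434 in iP rats (median 338) and 174 to 327 in iNP rats (median 263), with a difference of 0.47 ± 0.18 (limma unadjusted p = 0.0192, adjusted p = 0.441). The brightest Nr3c1 probe set pointed the other way in the same tissue, at -0.66 ± 0.41 (limma adjusted p = 0.666), with iP signals from 70.1 to 397 and iNP signals from 213 to 404. The low iP values were those of animals 4, 5 and 6 with the high hexokinase ratios. Without the pair of arrays that stood apart the differences were 0.41 (limma adjusted p = 0.397) and -0.88 (limma adjusted p = 0.392).

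Crh signals of the lines overlapped in every region. In cortex the 5 iP rats read 391, 295, 347, 277 and 306, and the 6 iNP rats read 212 to 380 with a median of 252. The cortical difference was 0.29 ± 0.17 (limma adjusted p = 0.85), and 0.26 without the pair of arrays that stood apart. In amygdala the medians were 206 in iP and 201 in iNP, and the difference was -0.04 ± 0.20. In hippocampus the difference of 0.51 ± 0.54 became -0.06 without iNP animal 9, whose array read 10.7.

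For Nr3c2 the lines overlapped in hippocampus, where its signal was highest. M36074_at read 891 to 1121 in iP (median 999) and 888 to 1044 in iNP (median 922), a difference of 0.09 with a 95% interval of -0.09 to 0.27. M36074_g_at read 390 to 536 in iP (median 478) and 312 to 727 in iNP (median 488), and its interval was -0.39 to 0.37.

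Whether a line difference varied between regions was tested as an interaction. It was called for 0 of the 8 probe sets by limma and for 0% of the 5244 tested, where 242 had an unadjusted p under 0.05. Of the members, Nr3c1 M14053_at (limma adjusted p = 0.956) was 1 of these 242. Crhbp AF003904mRNA_at (limma adjusted p = 0.976) also had an unadjusted p under 0.05, in the fit of all 8740, where 408 did and 0 were called.

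**Figure D5:**
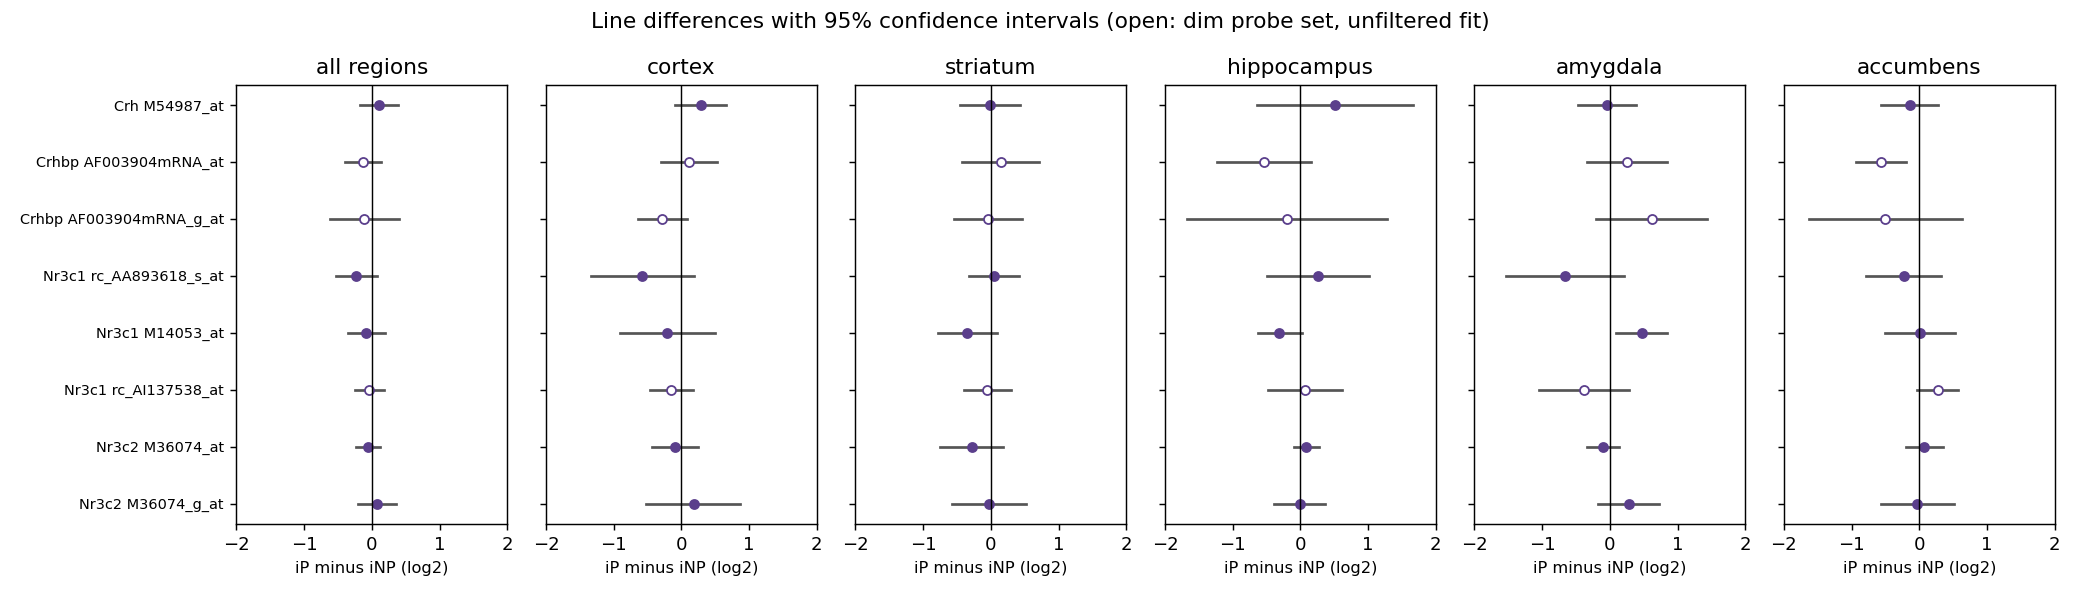
Difference iP minus iNP (log2) of the 8 probe sets over all regions and in each region, with 95% confidence intervals as lines; open symbols are dim probe sets from the fit of all probe sets. None of the differences was called, and over all regions the intervals lie between -0.62 and 0.40.

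The surrounding pathway was followed through 5 gene lists, in which the brightest tested probe set stands for a gene. Of peptides, receptors and processing enzymes of the Crh family and pituitary axis, 9 genes were tested. In hippocampus 2 were higher, Adcyap1r1, the receptor gene of the peptide PACAP, by 0.50 ± 0.13 and the carboxypeptidase gene Cpe by 0.11 ± 0.04, and 0 were lower (median -0.03). In amygdala 1 was higher, Pam, an enzyme that amidates peptides, by 0.11. Lower there were 3: the prohormone convertase gene Pcsk2 (-0.55 ± 0.07), Pomc, the precursor gene of corticotropin (-0.43 ± 0.16), and Adcyap1r1 (-0.42 ± 0.13), with a list median of 0.04. The median over all tested probe sets was 0.01 in both regions. Against these and the following counts, 10.8% of tested probe sets were called higher and 12.5% lower in hippocampus, and 13.3% higher and 12.8% lower in amygdala.

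Steroid receptors are held ready to bind hormone by chaperones. Of 9 tested genes of chaperones and cofactors, 1 was higher in hippocampus and 0 lower (median 0.15), and the 1 was the Hsp90 gene Hsp90ab1 at 0.15 ± 0.05. In amygdala Stip1, a co-chaperone gene, was lower by -0.21 ± 0.06, and the other 8 were not called. Among 6 tested genes of steroid metabolism 0 were called in hippocampus, by limma adjusted p (median -0.10). In amygdala 1 was lower, the steroid 21-hydroxylase gene Cyp21a1 (-0.67 ± 0.18).

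Of 10 tested genes known to be induced by glucocorticoids, 2 were higher in hippocampus, Cebpb by 1.48 ± 0.10 and the kinase gene Sgk1 by 0.30 ± 0.06, and 1 was lower, the phosphatase gene Dusp1 by -0.63 ± 0.13 (median -0.02), while 7 were not called. In amygdala 5 were lower and 5 were not called (median -0.21). The largest were Gpd1, which encodes glycerol-3-phosphate dehydrogenase (-1.05 ± 0.22), the transcription factor gene Klf9 (-0.52 ± 0.07) and Dusp1 (-0.45 ± 0.13). Oligodendrocytes are rich in Gpd1, and 6 of 6 oligodendrocyte markers were lower in amygdala (median -0.85), whose part in this was not tested.

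Other nuclear receptors gave 3 higher and 4 lower of 18 tested in hippocampus (median -0.03). The orphan receptor genes Nr4a3 (1.06 ± 0.12) and Nr4a2 (0.71 ± 0.10) and the thyroid hormone receptor gene Thra (0.21 ± 0.06) were higher. The retinoid X receptor gene Rxrg (-0.87 ± 0.10), the thyroid hormone receptor gene Thrb (-0.49 ± 0.13) and Nr4a1 (-0.41 ± 0.10) were lower. In amygdala 2 were higher, Nr2f1 (0.54 ± 0.07) and Thra (0.17), and 5 were lower, among them Nr4a2 (-0.67), Nr4a3 (-0.50) and Esrra (-0.34).

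Between the lines, 0 genes of these 5 lists were called over all regions, and 0 in any single region, by limma adjusted p. The median line difference over all regions was 0.00 for the Crh family and pituitary axis, -0.03 for chaperones, -0.05 for steroid metabolism, 0.02 for glucocorticoid-induced genes and -0.06 for other nuclear receptors, against -0.01 over all tested probe sets. Among markers of cell types, those called over all regions were lower in iP: Npy, 1 of 13 for interneurons, by -0.24, the platelet and endothelial adhesion gene Pecam1, 1 of 3 for endothelium, by -0.47, the purine receptor gene P2ry12, 1 of 4 for microglia, by -0.77, and the haemoglobin gene Hbb-b1, 1 of 3 for blood, by -0.38. Of all tested probe sets 1.45% were called lower in iP. The median of the blood markers was -0.38 over all regions and -0.51 to -0.29 in single regions. The part of these cells in the line differences of the members was not tested.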

How the data were processed

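Total RNA of each rat and region was labelled with biotin and hybridised to its own Affymetrix array, per the labels' protocols. What the authors deposited is 1 linear intensity per probe set and array, on a level common to all arrays. Which program computed it is not stated in the labels, and arrays hold no read depth. Signals under 16 were set to 16 and log2 transformed. After 59 control probe sets and the dimmest 40% were left out, 5244 probe sets were tested. Tests used limma 3.58.1 in R 4.3.3 with an intensity trend, two-sided, at a Benjamini-Hochberg adjusted p under 0.05 over all probe sets tested. Line differences were fitted in each region alone, or over each rat's regions averaged once each region's own level had been subtracted. Regions, their 10 pairs and the interaction had the rat as a block. That pairing follows the animal numbers in the titles. The mean residual correlation was 0.0574 within rats and -0.00369 between rats, and it was below 0 in 5 of 12 rats. The fitting code was first tested on simulated data.

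All member probe sets are described. Named beside them are the 3 genes of highest r for each member with a tested probe set, and up to 3 rises and 3 falls of each pathway list in hippocampus, in amygdala and between the lines. Marker genes were chosen after their values were seen. The members, lists and alternatives were chosen with earlier results of these data known. Dim members were fitted without the filter, which was decided after seeing the data. Gene symbols come from the array's platform annotation, which can be old. No coordinates are given, as it names no genome build. For iP animal 6, cortex was not analysed here. Nothing in the labels gives hybridisation batches. The 6 rats of a line are separate animals. Alternatives were the floor, the filter, quantile normalization, array weights, leaving out each rat or the pair of arrays that stood apart, and the block.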

Additional observations from a re-analysis of the deposited data

Results flagged for a closer look

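Of 80 groups of arrays (8 probe sets, 5 regions, 2 lines), 5 held an array far from the rest of its group; chance gives about 1 in 20. Crh in hippocampus of iNP animal 9 read 10.7, where the other 5 iNP rats read 129 to 221. The same rat had the low Nr3c2 M36074_g_at signal in cortex, 60.8 against 121 to 165. Nr3c1 rc_AA893618_s_at in hippocampus of iNP animal 10 read 87.8 against 279 to 502, on an array with a log2 hexokinase 3′ to 5′ ratio of 1.94, the highest of its group. The dim Nr3c1 probe set rc_AI137538_at read 98.4 in amygdala of iNP animal 11, against 32.1 to 45.1, and 28.6 in accumbens of iP animal 4, against 36.2 to 40.5. That accumbens array had the highest log2 hexokinase ratio of all, 3.91.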

How the results depend on the processing

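For single member probe sets, the alternatives covered each region against the others, pairs of neighbours, line differences and the interaction. Called pairs of regions further apart in the order were not followed, so their stability is not known. The 13 called results that were followed, those of M36074_g_at among them, kept their call in 89 of 90 values under other settings. With 1 rat left out they kept it in 146 of 148, and none reversed. Neither total holds settings in which a probe set fell below the filter. For M36074_g_at these were, with 1 rat left out, those without animal 2 or animal 7. Values that were not called gained a call in 16 of 774 and 11 of 1356, and 41 and 98 of them changed sign. The number of member probe sets called moved as follows. In cortex (1 called) it was 2 with a floor of 64, with no filter, with quantile normalization and without the pair of arrays that stood apart, 4 with array weights and 0 with the lowest 60% left out. In hippocampus (3 called) it was 5 with no filter, where 8 were tested, and 1 with the lowest 60% left out, where 1 was tested. In striatum (2 called) and accumbens (1 called) it was 1 and 0 with the lowest 60% left out, and accumbens had 3 with quantile normalization. In amygdala (0 called, by limma adjusted p) it was 1 without the pair of arrays that stood apart and 1 with array weights. With 1 rat left out it ran from 0 (animals 2 and 7) to 2 (animals 1, 4, 5 and 9) in cortex, 1 (animals 2 and 7) to 2 in striatum, 2 (animals 2 and 7) to 4 (animal 1) in hippocampus, 0 to 1 (animal 2) in amygdala and 1 to 2 (animal 5) in accumbens. Without animal 2 or animal 7, M36074_g_at fell below the filter. For the other changes the cause was not tested. No line or interaction call appeared under any of these settings.

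With no replicate block, the counts that include M36074_g_at were 3 in hippocampus, 2 in striatum, 1 in cortex, 1 in accumbens and 0 in amygdala (by limma adjusted p). They were the same with the block, and no line call appeared with a random replicate block. The number of rats, and the low signal of Crhbp and of the third Nr3c1 probe set, limit the precision.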
